A study of Mus musculus with 17 samples.

Results

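Cortex RNA of hemizygous male mice carrying the R206W substitution of hnRNPH2 was compared with that of male littermates at 8 weeks of age. The comparison held 6 of the 17 samples of the series, chosen by their labels, with 3 mice of genotype Hemizygous Hnrnph2 R206W (here R206W) and 3 Wild type mice from the same line (R206W control), all on the C57BL/6J strain. The R206W allele was made by knocking the substitution seen in patients into mouse Hnrnph2, and because the gene lies on the X chromosome the males had no wild-type copy. R206W males are described by the study as surviving less well up to this age, so the mice sampled were survivors. The other lines of the series were an Hnrnph2 knockout line (KO, 6 mice with its controls, sampled at 8 weeks) and a P209L knockin line. The P209L line had 5 mice, 3 P209L and 2 controls, sampled at 3 weeks. Each line had Wild type controls of its own. The samples were bulk cortex, in which fewer cells of a type and less RNA per cell cannot be told apart. Values were TPM, a transcript abundance corrected for length and scaled to the same total in each library, so the sequencing depth was unknown and precision was judged from the spread between mice.

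The hnRNP H/F proteins, to which hnRNPH2 belongs, bind G-rich stretches of RNA and take part in splicing and in other steps of RNA processing. hnRNPH2 enters the nucleus with the import receptor Kapβ2 (transportin 1), which recognises a proline-tyrosine nuclear localisation signal (PY-NLS) between RNA recognition motifs of the protein. The arginine altered in R206W and the proline altered in P209L lie in this signal, and substitutions there cause an X-linked neurodevelopmental disorder. Hnrnph1 is the closest paralog.

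The reference coding sequence over the signal is shown because it holds both residues that were altered in the knockin lines. It spans codons 195 to 220 of 449, in exon 2 of 2 of the transcript used (chrX:134605490-134605567, plus strand, GRCm38), with the arginine codon altered in R206W (CGC) and the proline codon altered in P209L (CCT) in capitals. The altered bases of the knockin alleles were not read from these data, since TPM carries no sequence.
Hnrnph2 codons: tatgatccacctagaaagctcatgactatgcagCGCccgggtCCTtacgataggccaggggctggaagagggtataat

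The 6 libraries had the profile of cortex, with the 13 excitatory neuron markers adding up to between 2544 and 3191 TPM and the 14 oligodendrocyte markers to between 3019 and 3893 TPM. Pairwise correlations of log2 values across genes ran from 0.983 to 0.988, and 0 pairs of libraries were identical. R206W 3 stood apart in composition. Mitochondrially encoded transcripts took 10.7% of its TPM against 12.1% to 13.6% in the other 5 libraries, and the top 10 genes by level held 19.4% against 22% to 24.4%. Values without this library are given below for the results that moved most with it.

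The level of Hnrnph2 itself did not pass the test in R206W cortex. Hnrnph2 lies on the plus strand of chromosome X from 134601179 to 134607060 in GRCm38 (ENSMUSG00000045427.13). It was at 149, 147 and 140 TPM in the controls and at 142, 135 and 160 TPM in R206W mice. The groups overlapped, with the highest value in R206W 3. The log2 change on the log2(TPM + 1) scale, used for every change below, was 0.0023 (SE 0.17, 95% interval -0.36 to 0.36, adjusted p = 1), and its sign turned with the scaling, as given in the closing section. A substitution need not change the level, so this value does not check the label. Hnrnph2 shares 97.8% identity over 1344 bases with the processed pseudogene Gm8775, which lay between 0.99 and 1.57 TPM, and 85.9% over 1364 bases with Hnrnph1, so reads may be divided between them.

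The rest of the family did not pass the test either. Hnrnph1 was at 336, 323 and 377 TPM in controls and 377, 375 and 355 TPM in R206W mice, overlapping groups with a log2 change of 0.10 (SE 0.128, interval -0.18 to 0.37). The log2 change was -0.084 (SE 0.138) for Hnrnph3 and -0.067 (SE 0.193) for Hnrnpf. Without R206W 3 the change of Hnrnph3 was -0.18, and without R206W control 3 that of Hnrnpf was -0.12. Leaving out single mice moved Hnrnph1 to between 0.051 and 0.16. The list used for this family held 5 tested genes, including a gene beyond those named above. Of the 5, 2 were above 0 and 3 below, with a median of -0.067 against 0.0096 over all 16265 genes tested.

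Across all genes, 6 passed the adjusted threshold of 0.05 (limma, Benjamini-Hochberg), which is 0.0369% of the 16265 tested, and each of the 6 was higher in R206W mice. They were Gm31166, Ppp1r9b, Ilrun, Ddn, Phactr3 and Ppfia3. Without adjustment, 213 genes (1.31%) had p under 0.05 and were higher, and 144 (0.885%) were lower. The groups did not overlap at 1316 genes that were higher (8.09%) and 1319 that were lower (8.11%), so that absence of overlap alone was common. For a wider set, a log2 change beyond 0.5 was asked for besides an unadjusted p under 0.05, and 59 genes (0.363%) were higher and 36 (0.221%) lower.

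**Figure D1:**
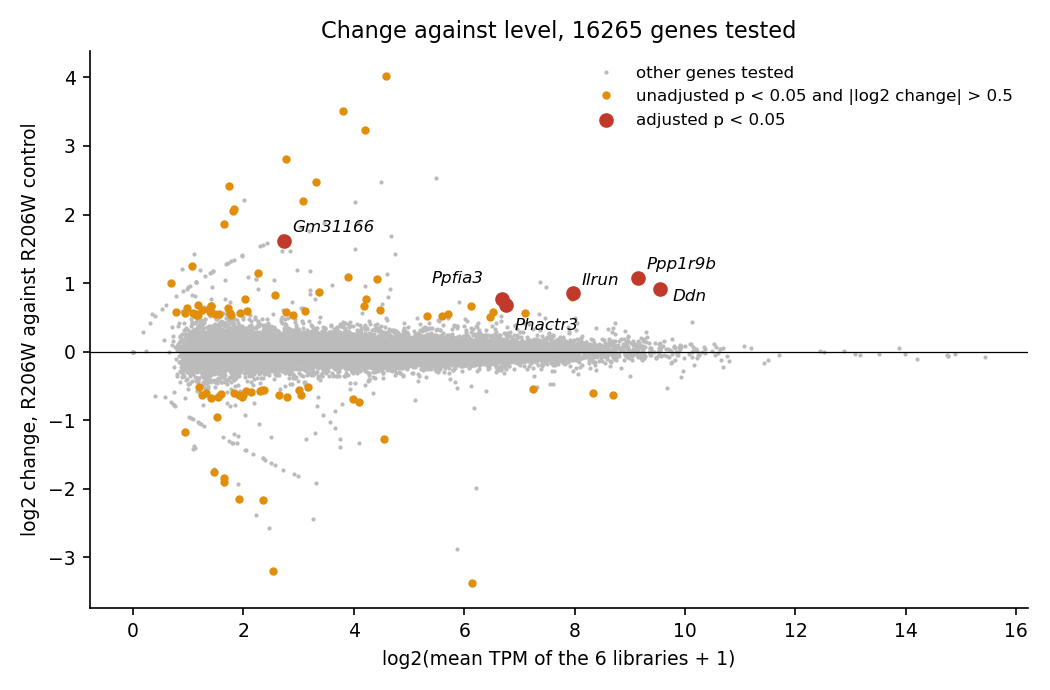
Log2 change of R206W against R206W control (y axis) against log2 of the mean TPM of the 6 libraries plus 1 (x axis) for 16265 genes. The 6 genes past the adjusted threshold (red) all lie above 0, and the wider set (orange) is mostly at low levels.

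Ppp1r9b encodes spinophilin (neurabin-2), which anchors protein phosphatase 1 in dendritic spines. Its level (ENSMUSG00000038976.12, chromosome 11, 94991035 to 95006899, plus strand) was 339, 368 and 389 TPM in the controls and 780, 786 and 745 TPM in R206W mice. The groups lay far apart, with the lowest R206W value above the highest control value. The mean was 211% of control (365 ± 25 against 770 ± 22.2 TPM, SD, n = 3 each). The log2 change was 1.08 (SE 0.097, adjusted p = 7.17e-05).

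Ddn encodes dendrin, a postsynaptic protein of dendrites. It was at 527, 518 and 509 TPM in controls and 1070, 953 and 920 TPM in R206W mice, without overlap, a mean of 189% of control (log2 change 0.92, SE 0.102, adjusted p = 0.000626). After correcting each library for transcript length and GC content it was 0.84 with an adjusted p of 0.173. The span of an antisense gene, B130046B21Rik, overlaps that of Ddn by 2467 bases on the opposite strand, introns included. The longest aligned stretch between their transcripts was 177 bases at 100% identity. B130046B21Rik had 8.78, 6.67 and 3.84 TPM in controls against 13.6, 10.1 and 12.8 TPM in R206W mice (log2 change 0.87, SE 0.248, adjusted p = 1). Whether strand was used in the counting is not given in the sources used here, so the antisense value may hold reads of Ddn.

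Ilrun encodes a regulator of inflammation and lipid metabolism. It was at 175, 177 and 182 TPM in controls and 320, 324 and 318 TPM in R206W mice, without overlap. The mean was 180% of control, with a log2 change of 0.85 (SE 0.0918, adjusted p = 0.000595).

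Phactr3 encodes a phosphatase and actin regulator that binds protein phosphatase 1. Its values were 80.8, 84.2 and 82.9 TPM in controls and 136, 132 and 131 TPM in R206W mice, again without overlap, giving 161% of control (log2 change 0.68, SE 0.0872, adjusted p = 0.00315). Ppfia3 encodes liprin-α3, a scaffold of the presynaptic active zone. It was at 77.5, 74 and 76.1 TPM in controls and 129, 130 and 128 TPM in R206W mice, giving 170% of control (log2 change 0.76, SE 0.112, adjusted p = 0.0141). Ppfia3 passed with all mice but not when any 1 of the 6 mice was left out (0 of 6 fits passed, with adjusted p up to 0.145).

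Gm31166, annotated as a transcribed processed pseudogene (chromosome 19, 5512528 to 5550368, plus strand), had the largest fold of the 6. It rose from 2.11, 2.39 and 2.36 TPM to 9.51, 9.36 and 8.36 TPM, 397% of control, with a log2 change of 1.62 (SE 0.125, adjusted p = 1.63e-05). It shares sequence with Ovol1 on the opposite strand (692 aligned bases), which was listed at no more than 0.03 TPM in all 6 libraries.

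**Figure D2:**
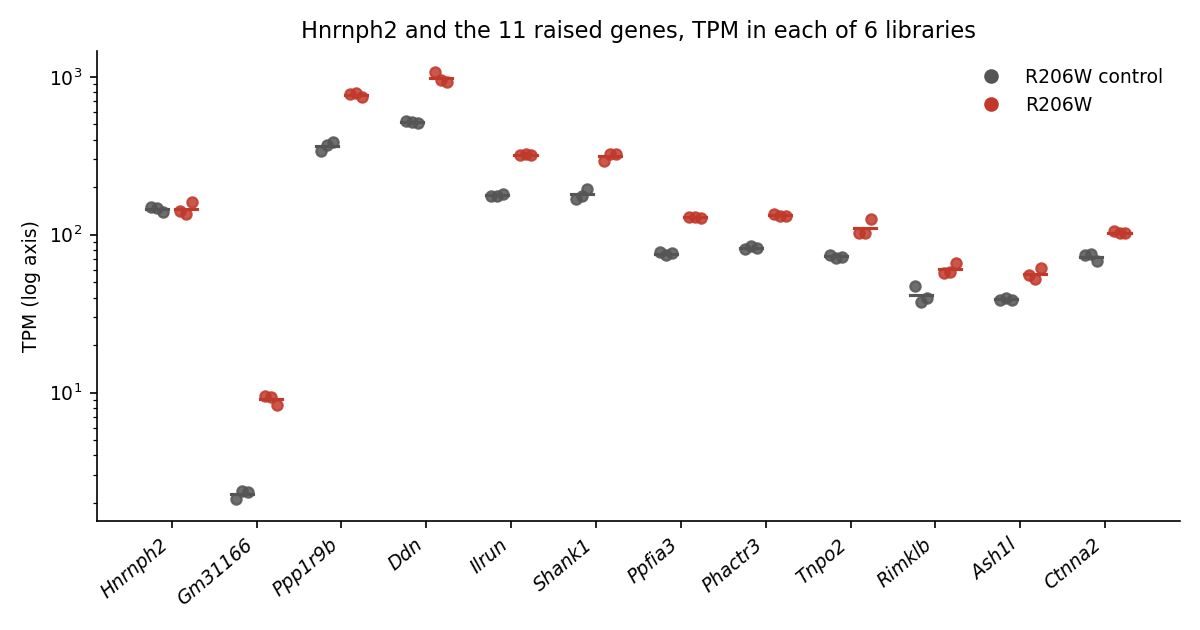
TPM (y axis, log) of Hnrnph2 and 11 genes in each of the 3 R206W control (grey) and 3 R206W (red) mice, with bars at the group means. At each gene but Hnrnph2 the red points lie above the grey points.

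The study named 10 genes as raised in both knockin lines but not in KO. Of these, 5 are among the 6 above (all but Gm31166), and the other 5 are Shank1, Tnpo2, Rimklb, Ash1l and Ctnna2. Since the study picked the 10 from these same mice, they give no independent evidence of a direction or of a difference from KO. All 10 were above 0 with a median of 0.72 against 0.0096 over all genes, all 10 had p under 0.05 unadjusted, and 10 of 10 did not overlap (background 8.09%). Shank1, a scaffold of the postsynaptic density, was at 168, 177 and 194 TPM in controls and 294, 322 and 325 TPM in R206W mice (log2 change 0.80, SE 0.168, adjusted p = 0.413). Tnpo2, a relative of the import receptor Kapβ2, was at 74.6, 71.3 and 72.7 TPM against 102, 103 and 125 TPM, with R206W 3 highest (0.58, SE 0.194, adjusted p = 1, and 0.49 without R206W 3). None of the groups overlapped at either gene.

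Rimklb, which makes N-acetylaspartylglutamate, was at 47.5, 37.3 and 39.5 TPM in controls and 57.6, 58.3 and 66.5 TPM in R206W mice (log2 change 0.55, SE 0.123, adjusted p = 0.722). Ash1l, a histone methyltransferase, was at 38.7, 39.5 and 38.6 TPM against 55.4, 52.4 and 61.4 TPM (0.52, SE 0.167, adjusted p = 1). Ctnna2, encoding αN-catenin, was at 74.5, 75.1 and 67.8 TPM against 105, 102 and 102 TPM (0.51, SE 0.126, adjusted p = 0.956). R206W values were the higher ones at each of these genes, with no overlap.

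Other genes among the wider set and with non-overlapping groups did not pass the adjusted threshold. P3h4, of the prolyl 3-hydroxylase family, was at 4.86, 5.17 and 8 TPM against 10.1, 8.11 and 10 TPM (log2 change 0.59, SE 0.157), and Ptges3l at 4.26, 3.84 and 5.21 TPM against 5.86, 9.82 and 6.1 TPM (0.58, SE 0.159, and 0.37 without R206W 2). Among those lower, Apod, a lipid-binding apolipoprotein made by glia, was at 181 ± 26.3 TPM (SD, n = 3) in controls and at 130, 117 and 120 TPM in R206W mice, all below the lowest control at 157 TPM (-0.55, SE 0.137, adjusted p = 0.956). Etnppl, an astrocyte enzyme of ethanolamine metabolism, was at 25.6, 16.8 and 18.8 TPM against 11.2, 13.2 and 10.8 TPM (-0.73, SE 0.242, adjusted p = 1). Malat1, a nuclear non-coding RNA, was at 561, 457 and 492 TPM against 382, 375 and 231 TPM, lowest in R206W 3 (-0.64, SE 0.279, and -0.41 without R206W 3).

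Smco3 (-0.63), Tnni1 (-0.56), Gm11449 (-0.56), Gm29650 (-0.63), Gm27038 (-0.69), Gm6030 (-0.52) and Gm37111 (-0.66) were lower too, at no more than 21 TPM. The snoRNA Gm24888 was at 6.77, 4.41 and 17.6 TPM in controls and listed at 0 in each R206W library, so no fold is given. The scaRNA Gm26347 was at 6.48, 8.42 and 5.58 TPM against 4.16, 0 and 0 TPM. Both lie inside larger genes on the same strand (Rpl27a and Rnf41). Gm24888 also shares 89 bases with the miRNA entry Gm47284 on the same strand. That entry went the other way, at 0, 0 and 0 TPM in controls and 7.17, 0 and 8.2 TPM in R206W mice. Whether reads were divided differently between these entries was not tested. Small RNAs made up 18 of the 95 genes of the wider set but 1.26% of genes tested, and 16 of the 18 were listed at 0 in at least 1 of the 6 libraries. A further 41 were protein coding, against 82.7% of genes tested, and 17 were pseudogenes (7.25% of genes tested). Other non-coding genes numbered 18 (7.36% of genes tested), and 1 had no annotation (0.756% of genes tested).

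Gene groups are given by their counts and medians, with no set test. Of 22 protein phosphatase 1 subunits and regulators, 4 had p under 0.05 unadjusted, all higher, and 2 of these passed the adjusted threshold (Ppp1r9b and Phactr3), against 1.31% of all genes higher at p under 0.05 and 0.0369% past the adjusted threshold. The catalytic subunit Ppp1cb was among the 4, at 203, 214 and 199 TPM in controls and 279, 254 and 259 TPM in R206W mice (log2 change 0.36, SE 0.133, adjusted p = 1). Ppp1r1a, an inhibitor subunit, was the fourth, at 105, 101 and 107 TPM against 132, 120 and 115 TPM (0.23, SE 0.098). Ppp1r9b and Phactr3 were picked by the study from these same mice, so the counts of this list hold that choice. The median of the list was 0.041, and 0.014 without these 2 genes. Of 26 postsynaptic density scaffolds, 4 had p under 0.05 and were higher (1.31% of all genes), with a median of 0.061, and 0.059 without Ddn and Shank1. Ddn and Shank1 are among the 4 and were picked by the study in the same way. Without R206W 3 the medians of both lists turned below 0, to -0.041 for the phosphatase 1 list and -0.024 for the scaffolds. Genes in general moved down in that fit too, with medians of -0.057, -0.027, -0.007 and -0.002 from the lowest to the highest quartile of GC content. Without R206W control 3 the median of the phosphatase 1 list was -0.0087. Agap2, a GTPase-activating protein, was at 296, 292 and 288 TPM against 363, 360 and 394 TPM (0.35, SE 0.14). Sipa1l1, an activator of Rap GTP hydrolysis at spines, was another, at 136, 148 and 150 TPM against 196, 194 and 221 TPM (0.49, SE 0.165).

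Of 12 GABA-A receptor subunits, Gabra3 alone had p under 0.05, at 104, 113 and 111 TPM against 145, 138 and 130 TPM (log2 change 0.33, SE 0.13), without overlap, while the median of the list was -0.00026. Among 26 presynaptic proteins Ppfia3 alone had p under 0.05 (median 0.051), and among 27 nuclear transport receptors Tnpo2 alone (median -0.0063). None of 37 other hnRNP, FET and SR proteins had p under 0.05 (median -0.032), nor of 42 ribosomal proteins (median -0.026), 18 stress granule proteins (median -0.017), 17 interferon response and MHC class I genes (median -0.017) or 21 glutamate receptor genes (median 0.047). The 21 chaperones had a median of -0.12 with 16 below 0, while 52.9% of all genes were above 0. None of the 21 had p under 0.05. Their summed levels overlapped, at 6439, 6277 and 5857 TPM in controls and 5736, 5608 and 6731 TPM in R206W mice. The 15 catenins and cadherins (median 0.10) and 21 histone H3 lysine methyltransferases (median 0.039) held 1 gene each with p under 0.05, Ctnna2 and Ash1l, and the 8 sodium channel genes (median -0.035) held none. Ppfia3, Tnpo2, Ctnna2 and Ash1l are all among the genes picked by the study. Without R206W 3 the medians were -0.0058 for presynaptic proteins, -0.0079 for glutamate receptor genes, -0.043 for histone H3 lysine methyltransferases and 0.025 for ribosomal proteins. In that fit the median of every GC content quartile of genes was below 0 as well.

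**Figure D3:**
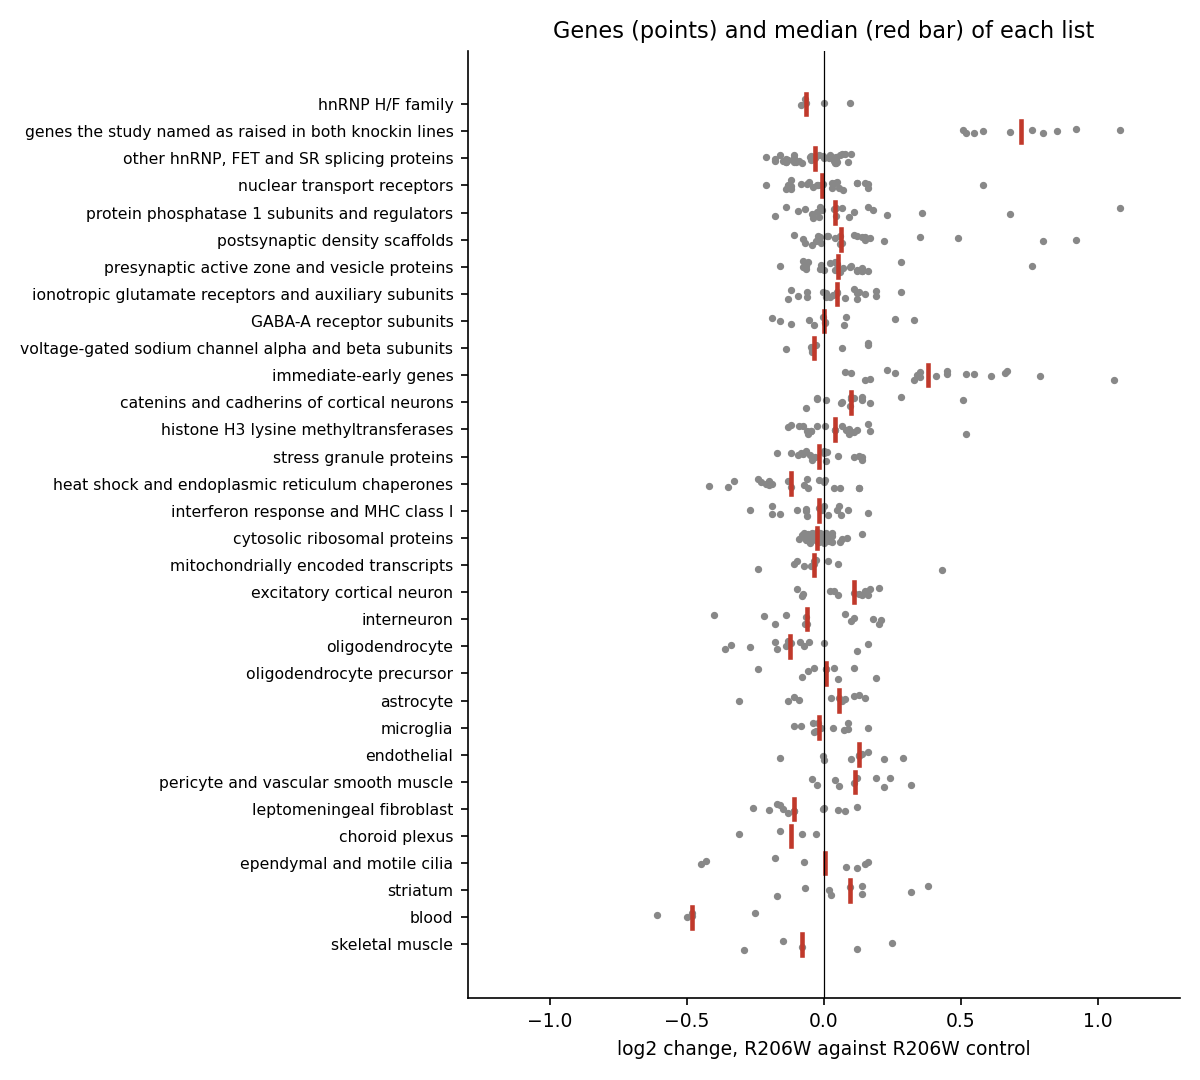
Log2 change of R206W against R206W control (x axis) for each gene of 32 lists (points), with the list median as a red bar. The axis ends at -1.3 and 1.3, which leaves out 2 mitochondrial genes, and the medians of most lists lie close to 0.

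Immediate-early genes, which neurons transcribe within minutes of activity, were above 0 at 20 of 20 genes, against 52.9% of all genes, with a median of 0.38. Their summed levels were 1941, 1352 and 1314 TPM in controls and 1506, 1850 and 2833 TPM in R206W mice, so the groups overlapped and R206W 3 was highest. At 5 genes p was under 0.05 (1.31% of all genes were higher at that p) and at 4 the groups did not overlap (8.09% of all genes), and none passed the adjusted threshold. Npas4, a neuronal activity-dependent transcription factor, was at 19.7, 14.3 and 15.9 TPM against 21.7, 25.2 and 30.8 TPM (log2 change 0.61, SE 0.205, adjusted p = 1). Btg2 was at 17.1, 10.6 and 11.3 TPM against 21.8, 30.2 and 32.1 TPM (1.06, SE 0.363), and Dusp1 at 63.1, 44.7 and 49.4 TPM against 66.8, 81.8 and 104 TPM (0.67, SE 0.299). Without R206W 3 the list median was 0.17, Npas4 was at 0.48 and Dusp1 at 0.50. The list median was 0.58 without R206W control 1 and 0.59 without R206W 1. R206W 3 is also the library with the lowest mitochondrial share of the 6, and the part of its composition in these values was not tested.

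**Figure D4:**
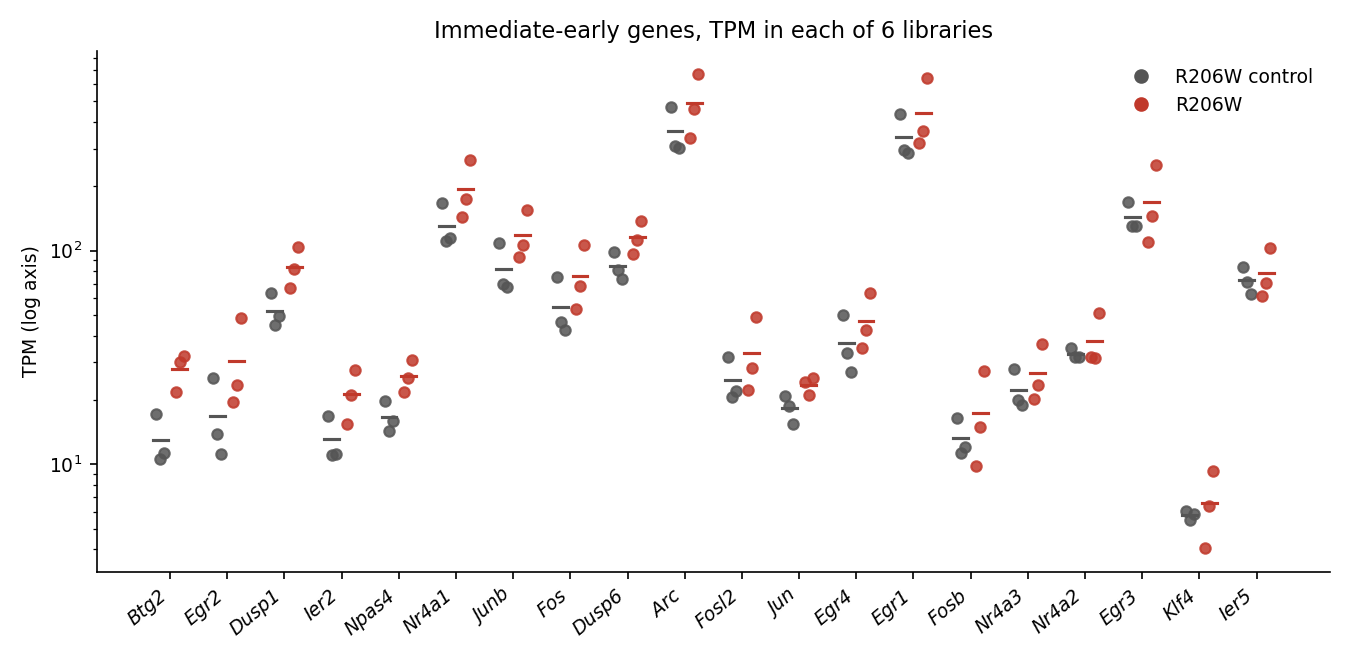
TPM (y axis, log) of 20 immediate-early genes in each of the 3 R206W control (grey) and 3 R206W (red) mice, with bars at the group means. R206W 3 holds the highest value at all 20 genes, and the groups do not overlap at 4.

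Among markers of other cell types, the median furthest from 0 was that of blood. The 5 blood genes were below 0, with a median of -0.48, while 52.9% of all genes were above 0. Their sum was 1252, 736 and 778 TPM in controls and 693, 609 and 560 TPM in R206W mice. Hbb-bs was at 546, 307 and 321 TPM against 304, 245 and 203 TPM (log2 change -0.61, SE 0.27). Without R206W control 1 Hbb-bs was at -0.34 and the list median at -0.25. Of 14 oligodendrocyte markers, 12 were below 0 with a median of -0.13, while 52.9% of all genes were above 0. Their summed levels overlapped, at 3893, 3573 and 3640 TPM in controls and 3282, 3781 and 3019 TPM in R206W mice. Only 1 marker had p under 0.05 (0.885% of all genes were lower at that p). This was Gjc3, a gap junction protein, at 34.6, 30 and 31.2 TPM against 23.3, 28.1 and 23.8 TPM (-0.34, SE 0.121).

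Among 11 astrocyte markers Gjb6, a gap junction protein, was at 115, 106 and 127 TPM against 86.2, 98.8 and 94.2 TPM (log2 change -0.31, SE 0.142), while the list median was 0.057. Among 13 interneuron markers Vip was at 58.6, 54.8 and 67 TPM against 43.3, 42.1 and 50.3 TPM (-0.40, SE 0.137), with a list median of -0.063. The medians were 0.11 for excitatory neurons, -0.016 for microglia, 0.13 for endothelium, 0.12 for pericytes and vascular smooth muscle, 0.008 for oligodendrocyte precursors, -0.11 for leptomeningeal fibroblasts, -0.12 for choroid plexus, 0.0041 for ependyma, 0.095 for striatum and -0.081 for skeletal muscle. Without R206W 3 the medians were -0.03 for excitatory neurons, 0.041 for endothelium and -0.018 for pericytes and vascular smooth muscle. In that fit the median of every GC content quartile of genes was below 0 too. The part of cell composition in the changed genes was not tested.

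The transcripts of the 10 genes named by the study were examined for length and runs of G, which this protein family binds. Their median length was 4792 bases against 3075 over the genes tested with a sequence, and all 10 were longer than that median. Runs of 4 or more G occurred 6.43 times per kb at the median of the 10 genes, against 3.02 over all. Runs of G were more frequent than that in 8 of the 10. The 10 genes were also higher in GC content, with a median of 55.1% against 49.6%, and 7 of the 10 were above that median. Ppp1r9b (7.99 per kb) and Ddn (8.01 per kb) stood at percentiles 96.6 and 96.7 of the genes tested, and were high in GC content (62.3% and 59.9%), where the 1000 genes nearest in GC content had medians of 5.97 and 5.58. Phactr3 had 2.68 per kb, where the genes nearest in GC content had a median of 2.4. Ash1l (2.15 against 2.35) and Ctnna2 (3.12 against 3.16) were below the medians of the genes nearest in GC content. The rest of the 10 genes were above theirs. Log2 change moved with GC content in these libraries, with quartile medians of -0.054, -0.00093, 0.032 and 0.058 from the lowest to the highest GC content, and of -0.057, -0.027, -0.007 and -0.002 without R206W 3.

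Promoter sequences are shown for the 3 of the 6 raised genes that matched the RefSeq promoter table used here, because these genes rose together. Each runs from 250 bases before to 50 after the start (GRCm38.p6), on the strand of the gene, and capitals mark matches on both strands to the GC box motif GGGCGG, to the CCAAT box motif CCAAT, to the TATA box motif TATAAA and to the cAMP-response core motif TGACG. A full palindromic cAMP-response element counts as a match on each strand. In 32851 promoters of that length, GGGCGG was in 35.7%, CCAAT in 37.4%, TATAAA in 13.6% and TGACG in 20.8%. The first covers chr11:94990962-94991261, the second chr17:27820493-27820792 and the third chr7:45366970-45367269.
Ppp1r9b: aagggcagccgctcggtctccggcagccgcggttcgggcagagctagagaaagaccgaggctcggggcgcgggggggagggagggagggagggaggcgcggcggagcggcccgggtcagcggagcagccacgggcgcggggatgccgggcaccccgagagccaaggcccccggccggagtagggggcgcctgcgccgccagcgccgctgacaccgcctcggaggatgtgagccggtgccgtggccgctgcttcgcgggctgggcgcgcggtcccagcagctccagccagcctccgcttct
Ilrun: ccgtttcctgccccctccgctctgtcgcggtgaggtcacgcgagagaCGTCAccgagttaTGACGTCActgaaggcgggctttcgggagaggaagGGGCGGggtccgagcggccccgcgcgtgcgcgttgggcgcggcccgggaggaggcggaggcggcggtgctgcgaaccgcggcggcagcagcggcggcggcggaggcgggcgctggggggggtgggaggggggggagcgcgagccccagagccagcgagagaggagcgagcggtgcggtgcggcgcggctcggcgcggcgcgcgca
Ppfia3: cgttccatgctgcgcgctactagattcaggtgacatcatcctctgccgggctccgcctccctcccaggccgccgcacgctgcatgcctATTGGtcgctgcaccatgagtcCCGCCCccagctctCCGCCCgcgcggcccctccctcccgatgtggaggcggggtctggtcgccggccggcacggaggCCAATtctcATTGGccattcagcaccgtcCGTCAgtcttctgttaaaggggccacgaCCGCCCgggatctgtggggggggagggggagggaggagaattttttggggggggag
No motif was found in all 3 windows. Ppp1r9b had no match, Ilrun had 1 GC box and 3 matches to TGACG, and Ppfia3 had 3 GC boxes, 3 CCAAT matches and 1 match to TGACG. GC content was 77.3%, 77.7% and 67.3%, against a median of 52.7% over all promoters.

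The response was then set against that of the KO line, sampled at the same age with controls of its own. The R206W effect minus the KO effect passed the adjusted threshold at 5 genes (0.0307% of 16265 tested), with a difference above 0 at each. At Hnrnph2 the R206W change was 0.0023 and the KO change -2.30, a difference of 2.31 (interval 1.79 to 2.82, adjusted p = 0.00106). Ppp1r9b differed by 1.10 (interval 0.81 to 1.39, adjusted p = 0.00406), with a KO change of -0.021. Gm31166 differed by 1.40 (interval 1.03 to 1.78, adjusted p = 0.00406).

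Ilrun differed by 0.85 (interval 0.57 to 1.13) and Ddn by 0.94 (interval 0.63 to 1.25), each with an adjusted p of 0.0273. Ppp1r9b, Ilrun and Ddn were picked by the study from these mice as not raised in KO, so their differences are no independent evidence. Phactr3 differed by 0.70 (interval 0.43 to 0.96, adjusted p = 0.11) and Ppfia3 by 0.59 (interval 0.26 to 0.93, adjusted p = 1), so neither was shown to differ. Hnrnph1 was at 0.52 (SE 0.128) in KO and 0.10 in R206W mice, a difference of -0.42 (interval -0.80 to -0.034, adjusted p = 1), which did not pass.

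Against P209L, sampled at 3 weeks, 0 genes passed the adjusted threshold for a difference in limma (647 had p under 0.05 unadjusted, and the smallest adjusted p was 0.433). Line and age cannot be told apart there. Ddn had a change of 0.92 in R206W and 1.67 in P209L mice, a difference of -0.75 (interval -1.08 to -0.43, adjusted p = 0.744). Ppp1r9b had 1.08 and 1.53 (difference -0.45, interval -0.76 to -0.14, adjusted p = 1), and Gm31166 1.62 and 1.64 (difference -0.029, interval -0.43 to 0.37).

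**Figure D5:**
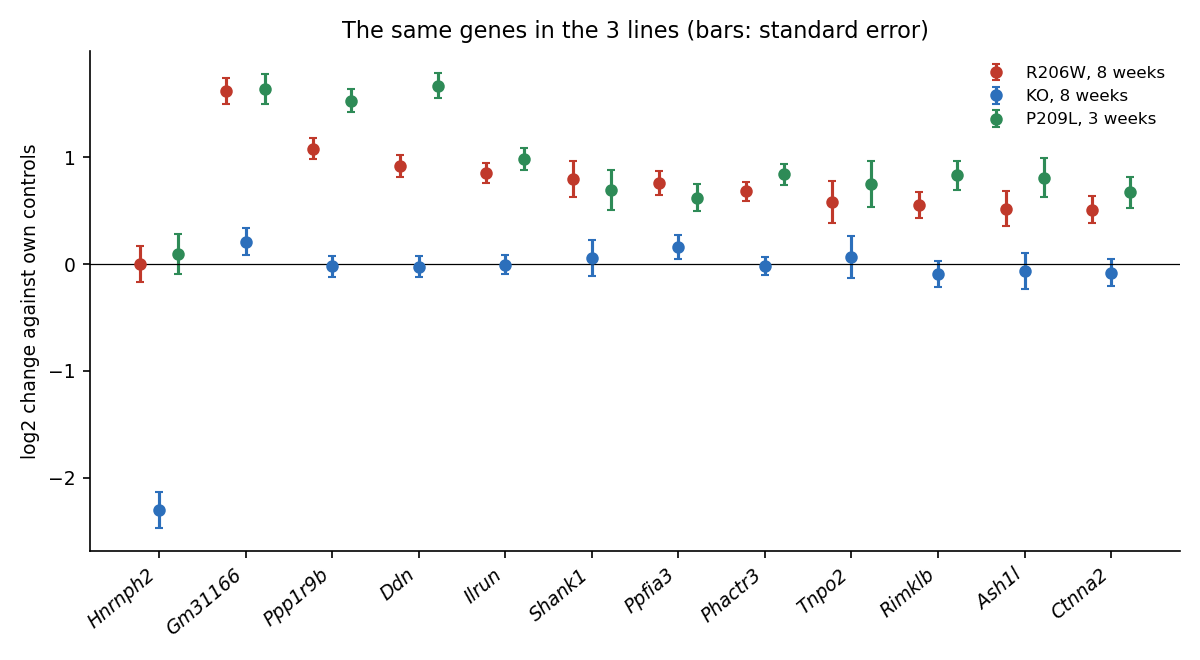
Log2 change against own controls (y axis) with standard errors for Hnrnph2 and 11 genes in R206W (red, 8 weeks), KO (blue, 8 weeks) and P209L (green, 3 weeks) mice. The 11 genes are above 0 in R206W and P209L and between -0.094 and 0.21 in KO, and Hnrnph2 is at -2.30 in KO. The study picked 10 of the 11 (all but Gm31166) from these mice as raised in both knockin lines but not in KO. Their positions are therefore no independent evidence of a difference between lines.

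Genes next to Hnrnph2 on the X chromosome were examined because the allele was made by knockin at this locus. Of 21 genes tested within 1 Mb, 9 were above 0 and 12 below, from -0.32 to 0.23, and 1 had p under 0.05, Gla, which encodes α-galactosidase A and lies on the minus strand, with its start next to the start of Hnrnph2. Gla was at 9.92, 8.78 and 9.17 TPM in controls and 7.18, 6.82 and 7.81 TPM in R206W mice, without overlap (log2 change -0.32, SE 0.13, adjusted p = 1). Over the 550 genes tested on chromosome X, 2.91% had p under 0.05, against 2.19% of all genes, and the median change was 0.00238.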

How the data were processed

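RNA from bulk cortex of male mice was sequenced from stranded total RNA libraries (TruSeq), per the labels. The authors deposited TPM values by gene symbol with a column for each mouse. The submitters' processing notes name Trim Galore, STAR 2.7.1a, GATK 4.0.4.0, RSEM and mm10, without role or order, and the annotation and use of strand are not given in the sources used here. TPM hides sequencing depth, so no counting error is given. Repeated symbols were summed (55453 symbols) and a gene was tested where its average over 17 samples reached 1 TPM (16265 genes). Values were log2(TPM + 1), and limma 3.58.1 in R 4.3.3 fitted 6 group means with a shared spread (eBayes, trend=TRUE), two-sided, with Benjamini-Hochberg adjustment at 0.05. The wider rule was an unadjusted p under 0.05 with a log2 change beyond 0.5. Whether the mice were separate litters is not given. The spread of each gene was shared by the 6 groups. SEs, intervals and p-values therefore measure the spread between mice of the R206W, KO and P209L lines together, not of the compared mice alone. Coordinates came from GENCODE M21 (GRCm38) by symbol, promoters from RefSeq, and shared sequence from blastn 2.17.0 (at least 85% identity over 150 bases). The code was tested on simulated data.

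The members and lists were chosen with earlier results of these data known. Named were the hnRNP H/F genes, the 10 genes of the study, genes past a threshold, up to 12 genes each way of the wider rule without overlap and with at least 5 TPM in the higher group, up to 3 genes of each list with p under 0.05, and X neighbours with p under 0.05. Alternatives were other pseudocounts, filters and scalings, subsets of groups, a replicate block, robust fitting, sample weights, removal of length and GC trends, and leaving out each mouse. The sample weights of arrayWeights with its default method did not converge (its weights ran from 2.44e-14 to 138), and the gene by gene method was added after these weights were seen (0.0819 to 4.01). Both fits are given.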

Additional observations from a re-analysis of the deposited data

Results flagged for a closer look

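The effect of R206W differed from that of KO, by the test of the difference itself, at 5 genes. The differences (R206W minus KO, log2) were 2.31 at Hnrnph2, 1.40 at Gm31166, 1.10 at Ppp1r9b, 0.94 at Ddn and 0.85 at Ilrun. Ppp1r9b, Ddn and Ilrun were picked by the study from these mice as not raised in KO. At Hnrnph2, the gene disrupted in KO, the change was 0.0023 in R206W and -2.30 in KO. Without the library KO control 1, which holds 20.1% mitochondrial TPM, 12 genes passed, among them the same 5.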

How the results depend on the processing

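Of the 6 genes higher in R206W, all were among the genes that passed under each alternative that gave a higher count, except that 5 of the 6 did after correction for length and GC content. Ppp1r9b and Ilrun passed in 21 of 21 alternatives and Gm31166 in 20 of 20. The count was 11 with quantile normalization, 10 with own groups alone, 17 after correction for length and GC content, 347 with the default sample weights and 149 with the gene by gene weights, and 5 to 6 when each mouse was left out. The default weights did not converge, so their counts are not a usable fit, and the gene by gene method was chosen after the default weights were seen. By the wider rule the count of 95 became 154 with a pseudocount of 0.1, 40 with a mean TPM of at least 5, 177 with the default weights and 165 with the gene by gene weights, and 96 to 128 when each mouse was left out. For R206W minus KO the count of 5 became 3 with own groups alone, 3 with the 8-week groups alone, 2 after correction for length and GC, 50 with the default weights, 319 with the gene by gene weights and 12 without KO control 1, and 3 to 4 when each mouse was left out. For R206W minus P209L the count of 0 became 1 with a pseudocount of 0.1, 1 with a pseudocount of 0.5, 7 with no filter, 100 with the default weights and 4 with the gene by gene weights, and 0 to 1 when each mouse was left out. The cause was not tested.

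With the replicate number as a block, 4 genes passed in R206W, 138 by the wider rule, 1 for R206W minus KO and 0 for R206W minus P209L. Correlations of the deviations of same-numbered mice were -0.0283, -0.0297 and -0.113, so no pairing by number was seen. No R206W mouse correlated best with the control of its own number. The log2 change of Hnrnph2 turned to -0.0075 with median-of-ratios size factors, -0.017 with quantile normalization, -0.0019 with mitochondrial genes removed, -0.046 with the default weights and -0.045 with the gene by gene weights, and ran from -0.067 to 0.054 when each mouse was left out. Phactr3 had an adjusted p of 0.105 under the block, and Ppfia3 0.0645 under the block and 0.13 with the 8-week groups alone. Shank1 and Ctnna2, which did not pass in the main fit, each passed in 6 of 21 alternatives. Ash1l, Rimklb and Tnpo2 each passed in 3 of 21. These counts include the fits with the default and the gene by gene weights. None of these genes passed when a mouse was left out. With 3 mice a group and unknown depth, small changes of low genes were not detectable.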

Other observations

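Among the mitochondrially encoded transcripts, 4 of 13 swung widely between libraries and the other 9 did not. mt-Co2 was at 0.19, 2.8 and 4.12 TPM in controls and at 54.4, 67 and 0.07 TPM in R206W mice, and mt-Atp8 was listed at 0, 0 and 6.69 TPM against 148, 0 and 0 TPM. mt-Co1, by contrast, lay between 23200 and 29800 TPM.

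Adra1b, an adrenergic receptor, was chosen after its values were seen. It was at 12.7, 13.6 and 12 TPM in controls and 21.1, 22.4 and 23.9 TPM in R206W mice, without overlap (log2 change 0.77, unadjusted p = 0.00716 in limma). Adra1b did not pass the adjusted threshold, and 8.09% of all genes were higher without overlap.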
